A study of Mus musculus with 6 samples.

Results

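Purinergic signalling in the optic nerve was followed through 10 genes, selected by gene symbol from the 25755 genes of the table, and all 10 were found there. The members were the ATP-gated channels P2rx4 and P2rx7, the nucleotide receptors P2ry1, P2ry2 and P2ry6, the adenosine receptors Adora1, Adora2a and Adora3, and the ectonucleotidases Entpd1 and Nt5e. Bulk RNA sequencing compared whole optic nerves of 3 mice with sham surgery (mice 1 to 3) and 3 mice with optic nerve crush (ON-CR, mice 4 to 6), labelled as 3 months old. Per the study's methods, surgery took place at 6 weeks of age and nerves were taken at 12 weeks, and sham surgery was an incision without crush. All 6 mice were NF1flox/flox;hGFAP-Cre, in which Cre under the human GFAP promoter removes Nf1 from neuroglial progenitors and the cells they give rise to. The sham mice therefore carry the same Nf1 loss, and no mouse with intact Nf1 entered the comparison.

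ATP and ADP leave damaged or active cells and bind P2 receptors, of which P2X receptors are ion channels and P2Y receptors couple to G proteins. The ectonucleotidase CD39 (Entpd1) removes phosphates from extracellular ATP and ADP down to AMP, and CD73 (Nt5e) turns AMP into adenosine, which binds the P1 receptors encoded by the Adora genes. In nervous tissue, microglia are known for reading extracellular nucleotides through P2Y and P2X receptors, whereas A1 adenosine receptors are known from neurons and glia.

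P2ry6, the receptor for UDP that is known to drive microglial phagocytosis, rose 1.90-fold in the ratio of group means, from 396 ± 49.97 to 753 ± 197 normalized values (SD, n = 3 each), and was the only member with an adjusted p at or under 0.05 by limma (0.0497). P2ry2, Adora3, P2rx7 and Entpd1 had higher means after ON-CR with an unadjusted p at or under 0.05, but their adjusted p by limma was from 0.0642 to 0.253. P2ry1, Adora1, Adora2a and Nt5e had lower means, and none of these passed either threshold. The share of all genes called higher at the adjusted threshold was 0.971%, 1.13% were called lower and 2.1% in either direction. At an unadjusted p at or under 0.05, 5 of the 10 members were higher and 0 lower, beside 15.6% of all genes, 7.37% higher and 8.22% lower. The median log2 fold change of the members was 0.31, beside 0.03 over all genes.

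Several facts of the whole series stand beside these values. The libraries held 17414091 to 23621006 estimated reads on genes, and all ON-CR libraries held fewer than any sham library. Xist was between 2.14 and 30.9 in sham mice and between 2708 and 6357 in ON-CR mice. The Y-linked Ddx3y was between 1291 and 1645 in sham mice and between 0 and 976 in ON-CR mice. The sex-linked transcripts thus moved with the groups, and the surgery cannot be told apart from them. ON-CR mouse 4 was high in both, with Xist at 2708 and Ddx3y at 976. In ON-CR mice 5 and 6, Ddx3y was at 4.19 and 0. Whether the library of mouse 4 holds RNA of more than 1 mouse was not tested. Each of 8 oligodendrocyte markers was lower in every ON-CR mouse than in every sham mouse, and limma called 7 of them after adjustment. No marker of oligodendrocytes or astrocytes was at or under 10 in all libraries. The summed value of 8 astrocyte markers was between 187578 and 226311 in sham mice and between 261166 and 294767 in ON-CR mice, without overlap, with 1 marker called lower (S100b) and 3 higher at an unadjusted p at or under 0.05. The summed value of 6 markers of B and plasma cells was 97072 in ON-CR mouse 6 and at most 2093 in each other library, and that of 6 T cell markers was 1101 in the same mouse and at most 415 elsewhere, with 0 genes of either list called. The summed value of 6 neuronal markers was 7017 in ON-CR mouse 5 and at most 2816 in each other library. In RNA of whole nerves, a change in the number of cells of a type and a change in RNA per cell cannot be told apart.

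**Figure D1:**
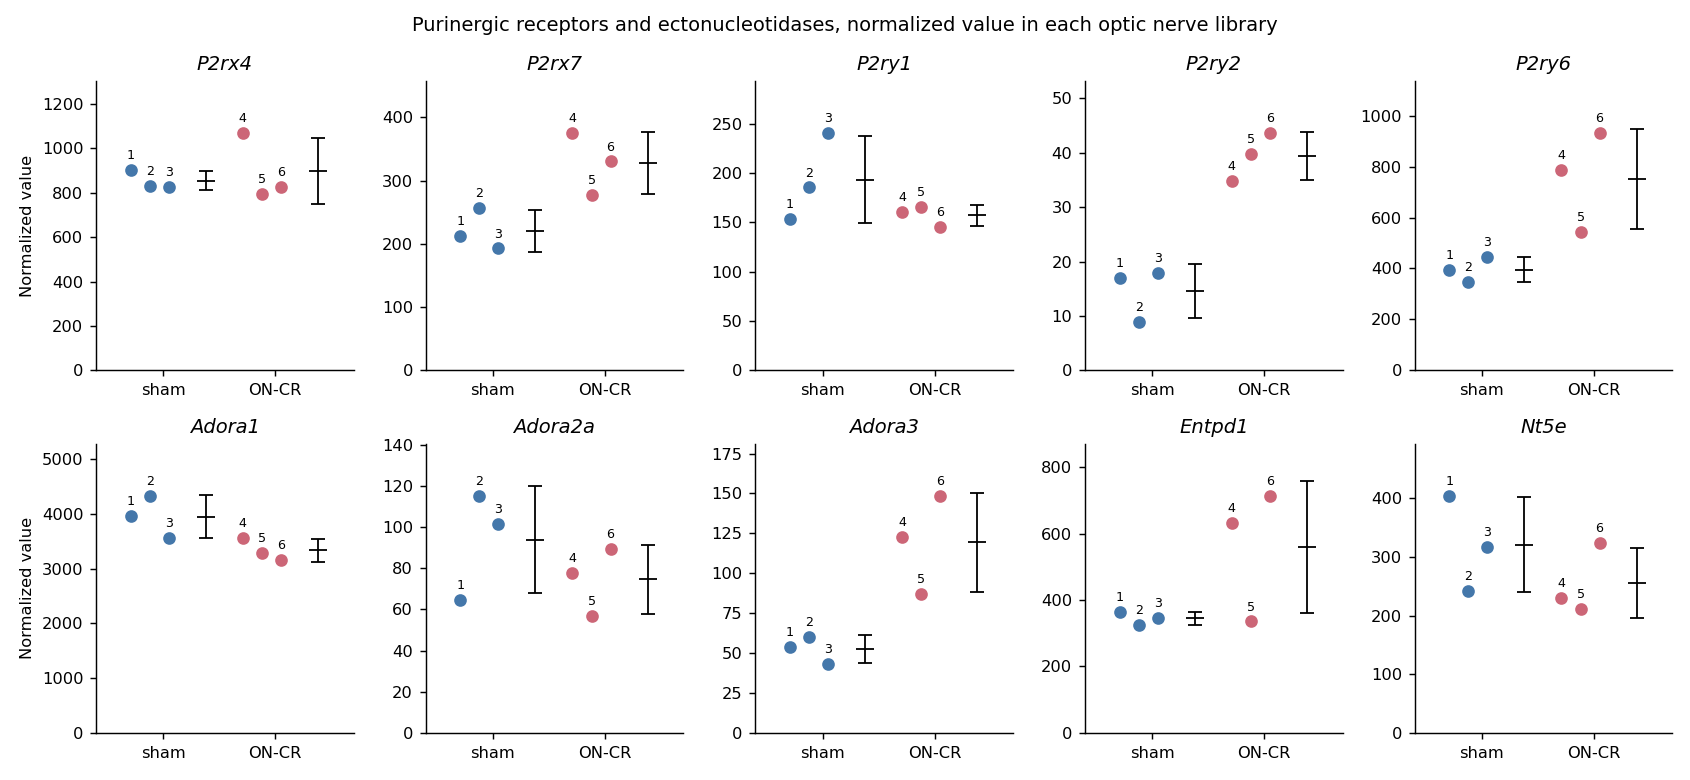
Normalized value of each member (vertical axis, starting at 0) in the 3 sham and 3 ON-CR libraries, with the mouse number above each point and the mean ± SD of the group as a bar beside the points. P2rx7, P2ry2, P2ry6 and Adora3 are higher in every ON-CR mouse than in every sham mouse, and ON-CR mouse 5 is the lowest ON-CR mouse for P2rx7, P2ry6, Adora3 and Entpd1.

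Groups did not overlap for 5 of the 10 members, 4 of them higher after ON-CR (P2rx7, P2ry2, P2ry6 and Adora3) and 1 lower (Adora1), beside 21.6% of all genes in either direction, 10.5% higher and 11% lower. This share of all genes was computed for the values as deposited only. With TMM scaling the number of members without overlap was 4, and with scaling by library size only it was 6. The region before the start of the 4 of these genes for which RefSeq (GRCm38.p6) gave a window is printed to show how different these starts are. Windows were found for 8 of the 10 members, and P2ry6 and Adora2a had none. Adora1, P2rx7 and P2ry2 each had a second window, at another annotated start, which is not printed. Each sequence holds the 250 bases before a start annotated by RefSeq, 5′ to 3′ on the strand of the gene. These starts can differ from the GENCODE bounds of the genes given below. The windows of Adora3 and P2ry2 lie inside those bounds, and the window of P2rx7 includes 16 annotated exon bases. Capitals mark matches on either strand to GAGGAAGT, the core of the binding site of the myeloid factor PU.1, and to TGANTCA (N is any base). TGANTCA is a looser form of the AP-1 site, which has C or G at N.
Adora3 (chr3:105904171-105904420, plus strand): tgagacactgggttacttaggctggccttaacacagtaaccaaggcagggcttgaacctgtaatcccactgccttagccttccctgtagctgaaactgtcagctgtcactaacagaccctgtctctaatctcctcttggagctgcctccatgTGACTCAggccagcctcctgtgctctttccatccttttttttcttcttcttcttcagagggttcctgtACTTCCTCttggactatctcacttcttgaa
Adora1 (chr1:134235458-134235707, minus strand): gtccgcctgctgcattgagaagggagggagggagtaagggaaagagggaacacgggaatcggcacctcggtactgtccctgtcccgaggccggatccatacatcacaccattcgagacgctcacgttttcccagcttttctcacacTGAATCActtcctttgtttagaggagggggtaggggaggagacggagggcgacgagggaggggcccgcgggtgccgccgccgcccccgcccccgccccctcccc
P2rx7 (chr5:122643677-122643926, plus strand): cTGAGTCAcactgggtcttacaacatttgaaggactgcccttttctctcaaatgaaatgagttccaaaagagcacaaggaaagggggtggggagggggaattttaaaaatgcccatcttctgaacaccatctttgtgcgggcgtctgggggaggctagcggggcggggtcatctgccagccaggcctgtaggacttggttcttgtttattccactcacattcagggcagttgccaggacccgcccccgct
P2ry2 (chr7:101012054-101012303, minus strand): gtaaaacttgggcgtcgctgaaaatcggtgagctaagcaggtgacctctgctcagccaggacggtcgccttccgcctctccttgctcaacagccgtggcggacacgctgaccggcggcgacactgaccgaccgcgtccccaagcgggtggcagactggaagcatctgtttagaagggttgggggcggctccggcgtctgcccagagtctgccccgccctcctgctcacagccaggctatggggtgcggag
The window of Adora3 had 48.8% G and C and 0 CpG dinucleotides, and that of Adora1 had 64.4% and 19. For P2rx7 the values were 53.6% and 6, and for P2ry2 they were 65.2% and 21, beside medians of 52.4% and 6 over all 32851 windows. GAGGAAGT was found in 2.44% of all windows and, among the 12 windows of members, in that of Adora3, on the minus strand 30 bases before the start. TGANTCA was found in 6.75% of all windows and in the printed windows of Adora3, Adora1 and P2rx7, at 98, 104 and 249 bases before the start. The match of Adora1 is TGAATCA, which has A at N and matches only the looser form. The windows of Adora1 and P2rx7 that are not printed held no match. Of 9 motifs searched, TATAAA (12.4% of all windows) was in none of the windows of members. These matches describe letters in the windows and do not show that a factor binds there.

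The P2X receptors are channels that ATP opens. P2rx7 (ENSMUSG00000029468.17, chromosome 5 of GRCm38 from 122643911 to 122691432, plus strand) encodes the channel that needs high ATP and is known for triggering release of IL-1beta from myeloid cells. Its normalized value was 212, 257 and 193 in sham mice 1, 2 and 3, against 375, 278 and 330 in ON-CR mice 4, 5 and 6. Every ON-CR mouse was above every sham mouse, with ON-CR mouse 5 close to sham mouse 2. The log2 fold change was 0.57 (standard error 0.18, 95% interval 0.17 to 0.96, adjusted p = 0.149 by limma). P2rx4 (ENSMUSG00000029470.15, chromosome 5 from 122707544 to 122729738, plus strand), its neighbour on the chromosome, encodes a channel that opens at lower ATP and is known from microglia after nerve injury. P2rx4 was at 903, 832 and 827 in sham mice 1, 2 and 3, and at 1069, 796 and 828 in ON-CR mice 4, 5 and 6. The groups overlapped, and ON-CR mouse 4 alone stood above the sham mice. Its log2 fold change was 0.06 (standard error 0.14, 95% interval -0.25 to 0.37, adjusted p = 0.884 by limma).

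The P2Y receptors couple to G proteins, and the members respond to different nucleotides. P2ry6 (ENSMUSG00000048779.5, chromosome 7 from 100937630 to 100974649, minus strand) was at 395, 346 and 446 in sham mice 1, 2 and 3. After crush it was at 786, 542 and 931 in mice 4, 5 and 6. The lowest ON-CR mouse, mouse 5, was above the highest sham mouse, mouse 3. The log2 fold change was 0.90 (standard error 0.20, 95% interval 0.46 to 1.34, adjusted p = 0.0497 by limma). That call lies at the edge of the threshold, and it held in 1 of the 6 fits with a mouse left out, the one without ON-CR mouse 5 (adjusted p = 0.0047 by limma), whereas the adjusted p without ON-CR mouse 6 was 0.236.

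P2ry2 (ENSMUSG00000032860.5, chromosome 7 from 100996568 to 101012866, minus strand) encodes a receptor for ATP and UTP known from epithelium and from activated glia. It was at 16.98, 8.85 and 17.8 in sham mice 1, 2 and 3, and at 34.9, 39.8 and 43.6 in ON-CR mice 4, 5 and 6. The ON-CR values lay close together and all above the sham values, but they rest on few reads, from 10 to 42 estimated reads per library. The log2 fold change was 1.43 (standard error 0.39, 95% interval 0.55 to 2.31, adjusted p = 0.104 by limma), the largest of the 10 members. P2ry1 (ENSMUSG00000027765.6, chromosome 3 from 61002795 to 61008982, plus strand) encodes the ADP receptor known from platelets and astrocytes. It was at 153, 186 and 241 in sham mice 1, 2 and 3, and at 160, 166 and 145 in ON-CR mice 4, 5 and 6. The groups overlapped, and the log2 fold change was -0.27 (standard error 0.20, 95% interval -0.72 to 0.18, adjusted p = 0.567 by limma). The antisense gene Gm37035, which shares 23.1% of the exon bases of P2ry1, was between 2.15 and 15.5 in all libraries.

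Among the adenosine receptors, Adora3 (ENSMUSG00000000562.5, chromosome 3 from 105870858 to 105908926, plus strand) encodes the A3 receptor, known from mast cells and microglia. Adora3 was at 54.1, 60.2 and 43.2 in sham mice 1, 2 and 3, and at 123, 87.0 and 148 in ON-CR mice 4, 5 and 6. No ON-CR mouse reached down to the sham range. The log2 fold change was 1.15 (standard error 0.27, 95% interval 0.54 to 1.75, adjusted p = 0.0642 by limma). Without ON-CR mouse 5 the adjusted p was 0.0249, and without ON-CR mouse 6 it was 0.276. Tmigd3, on the same strand, shares 20.9% of the exon bases of Adora3, so reads of the shared exons cannot be assigned to either gene with certainty.

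Adora1 (ENSMUSG00000042429.8, chromosome 1 from 134199223 to 134235431, minus strand) encodes the inhibitory A1 receptor and had the highest level per length of the 10 members in both groups. It was at 3967, 4327 and 3557 in sham mice 1, 2 and 3, and at 3556, 3293 and 3151 in ON-CR mice 4, 5 and 6. Each ON-CR value lay under each sham value, but sham mouse 3 and ON-CR mouse 4 were nearly equal. The log2 fold change was -0.24 (standard error 0.11, 95% interval -0.49 to 0.01, adjusted p = 0.337 by limma). Mybph, which lies on the other strand and shares 20.1% of the exon bases of Adora1, was between 2.92 and 10.5 in all libraries. Adora2a (ENSMUSG00000020178.6, chromosome 10 from 75316877 to 75334784, plus strand), whose receptor raises cyclic AMP and is known from striatal neurons and immune cells, was at 64.7, 115 and 101.4 in sham mice 1, 2 and 3, and at 77.8, 56.6 and 89.3 in ON-CR mice 4, 5 and 6. The groups overlapped, with a log2 fold change of -0.31 (standard error 0.29, 95% interval -0.96 to 0.33, adjusted p = 0.662 by limma).

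The ectonucleotidases showed opposite signs. Entpd1 (ENSMUSG00000048120.16, chromosome 19 from 40612366 to 40741602, plus strand), known from microglia and vessels, was at 364, 324 and 347 in sham mice 1, 2 and 3, and at 632, 335 and 713 in ON-CR mice 4, 5 and 6. ON-CR mouse 5 lay inside the sham range, while mice 4 and 6 stood far above it. The log2 fold change was 0.63 (standard error 0.25, 95% interval 0.08 to 1.18, adjusted p = 0.253 by limma). It was 0.96 without ON-CR mouse 5 (adjusted p = 0.00693 by limma) and 0.42 without ON-CR mouse 6 (adjusted p = 0.565), so ON-CR mouse 5 decides whether Entpd1 is called. Nt5e (ENSMUSG00000032420.8, chromosome 9 from 88327197 to 88372092, plus strand), known from fibroblasts, vessels and lymphocytes, was at 404, 242 and 317 in sham mice 1, 2 and 3. After crush it was at 230.3, 212 and 324 in mice 4, 5 and 6. The groups overlapped, with a log2 fold change of -0.32 (standard error 0.23, 95% interval -0.83 to 0.18, adjusted p = 0.540 by limma).

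**Figure D2:**
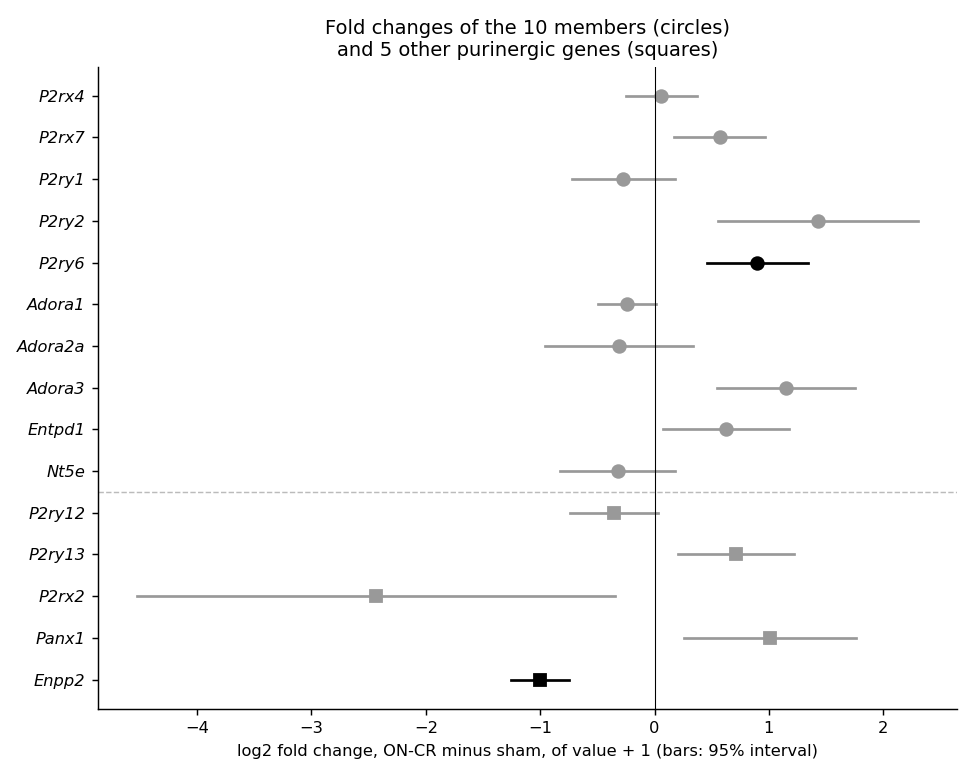
Log2 fold change of value + 1, ON-CR minus sham (horizontal axis), with its 95% interval for the 10 members (circles) and 5 other genes of the pathway (squares), in black where the adjusted p by limma was at or under 0.05. P2ry6 (0.90) and Enpp2 (-1.001) are in black, and the intervals of P2rx7, P2ry2, Adora3 and Entpd1 lie above 0 without passing the adjusted threshold.

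For single genes, a two-sided exact permutation test of 3 mice against 3 cannot give a p under 0.1. The 5 members whose groups did not overlap had this smallest p. With the filter of the study's methods (a fold change of at least 2 together with an unadjusted p no higher than 0.05), 2 of 10 members passed, P2ry2 and Adora3, both higher, beside 4.66% of all genes, 3.17% higher and 1.49% lower. The study used this filter on DESeq2 results after excluding genes of low coverage, and here it was used on limma without that exclusion. All genes included 3726 at or under 10 in every library, against 0 members. The paper's Results state a stricter filter, which was not used here.

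**Figure D3:**
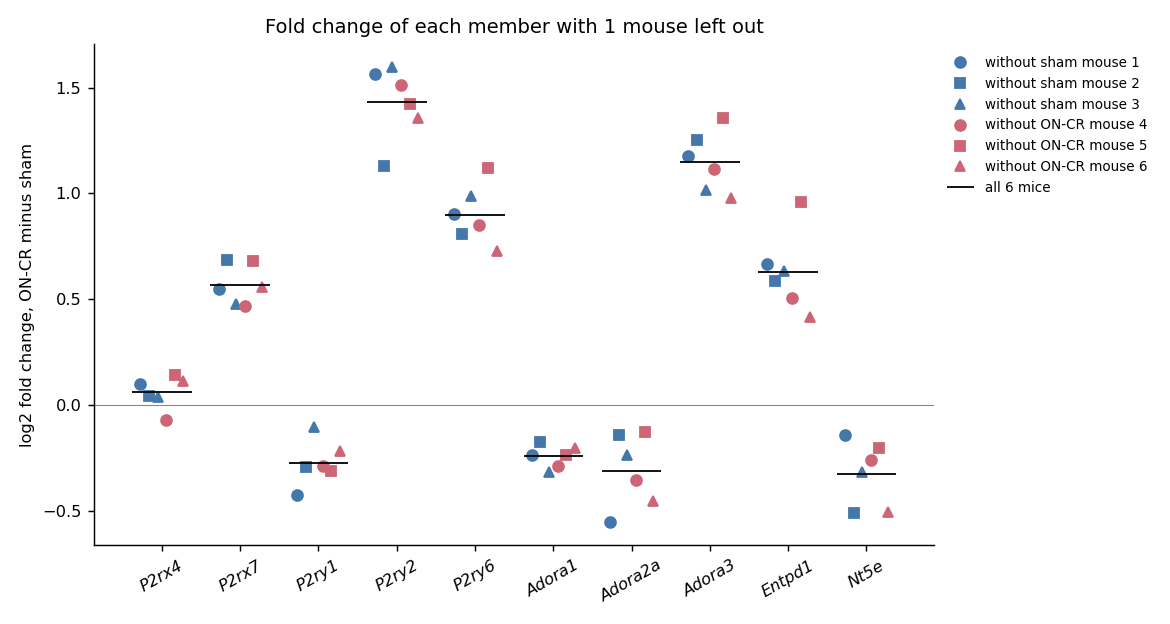
Log2 fold change of each member (vertical axis) when 1 mouse is left out, with blue points for a sham mouse, red points for an ON-CR mouse and a black line for all 6 mice. P2rx7, P2ry2, P2ry6, Adora3 and Entpd1 stay above 0 in all 6 fits, and P2rx4 turns to -0.07 without ON-CR mouse 4.

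Levels between genes were compared per kilobase of annotated exon. In sham mice Adora1 stood first at 683 ± 66.6 per kilobase, followed by P2ry6 at 137 ± 17.3 and P2rx4 at 122 ± 6.03 (SD, n = 3 each), and the ranges of P2ry6 and P2rx4 overlapped. Entpd1 came next at 61.8 ± 3.59. P2ry1 (45.0 ± 10.3), Nt5e (37.3 ± 9.46), P2rx7 (36.9 ± 5.51) and Adora2a (30.6 ± 8.51) followed per kilobase, and each overlapped its neighbour in this order. Adora3 at 14.1 ± 2.31 and P2ry2 at 3.71 ± 1.26 per kilobase stood below them, without overlap. In ON-CR mice Adora1 was again first at 576 ± 35.5 per kilobase. P2ry6 followed at 261 ± 68.2, now without overlap with P2rx4 at 128 ± 21.3. Entpd1 was at 100.4 ± 35.6, with a range that met those of P2rx4 above and P2rx7 (54.9 ± 8.14) below. P2ry1, Adora3, Nt5e and Adora2a came next between 36.6 and 24.4 per kilobase, each overlapping its neighbour. P2ry2 was last in both groups, at 10.0 ± 1.11 per kilobase in ON-CR mice.

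**Figure D4:**
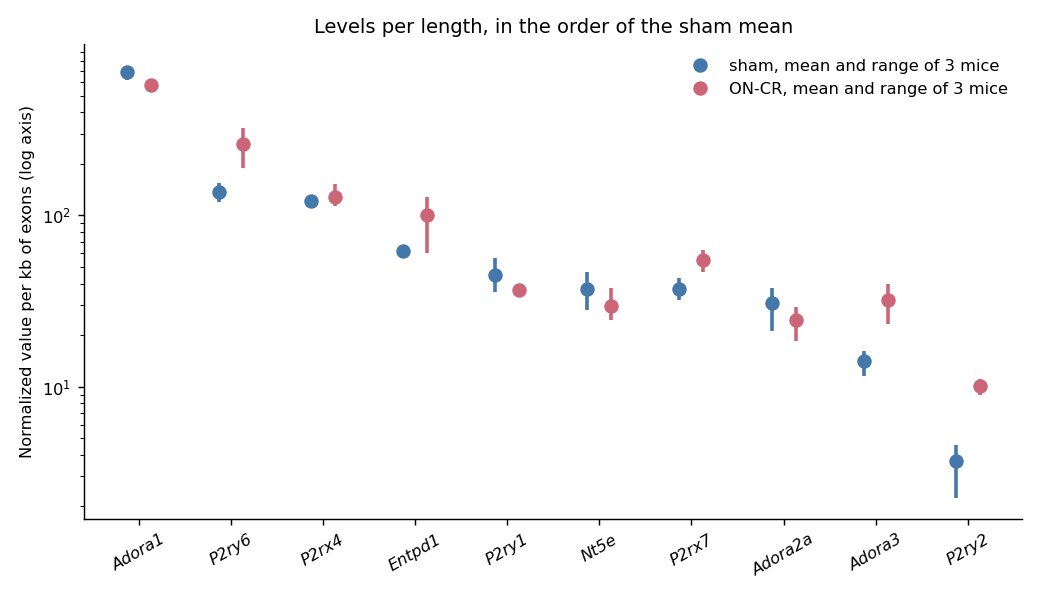
Normalized value per kilobase of annotated exon (vertical axis, logarithmic) of the 10 members in the order of the sham mean, as the mean (point) and range (line) of 3 sham mice (blue) and 3 ON-CR mice (red). Adora1 is highest in both groups, and the ON-CR point of Adora3 lies at the height of Nt5e and P2ry1 instead of below Adora2a.

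Ratios within a library do not depend on how libraries are scaled, and 5 pairs were compared per kilobase, chosen after the values had been seen and therefore given with no test. Entpd1 per Nt5e was 1.39, 2.07 and 1.68 in sham mice 1, 2 and 3, against 4.23, 2.44 and 3.39 in ON-CR mice 4, 5 and 6. Unlike Entpd1 alone, this ratio did not overlap between the groups. P2ry6 per P2ry12, a pair of receptors of microglia, was 0.179, 0.164 and 0.316 for the sham group, against 0.499, 0.418 and 0.603 after crush, in the same order of mice. The 3 ON-CR ratios were all above the 3 sham ratios here too. P2rx7 per P2rx4 was between 0.274 and 0.363 in sham mice and between 0.411 and 0.470 in ON-CR mice. P2ry6 per P2ry1 was between 2.76 and 3.82 in sham mice and between 4.86 and 9.53 in ON-CR mice. Adora3 per Adora1 was between 0.0188 and 0.0216 in sham mice and between 0.0410 and 0.0731 in ON-CR mice. None of the 5 ratios overlapped between the groups, but P2ry6, P2rx7 and Adora3 alone already did not overlap. The share of all gene pairs without overlap was not computed, so no result is drawn from this. Of the summed level per kilobase of the 4 adenosine receptors, Adora1 made up 76.6% ± 1.71 for the sham group against 76.6% ± 2.76 after crush, whereas Adora3 made up 1.57% ± 0.14 against 4.25% ± 1.11 (SD, n = 3). Adora2b, the fourth receptor of this sum, made up 18.4% ± 1.01 against 15.96% ± 2.04, also without overlap between the groups, and Adora2a 3.43% ± 0.88 against 3.24% ± 0.71, with overlap. For Adora2b itself the log2 fold change was -0.45 (standard error 0.16, 95% interval -0.80 to -0.10, adjusted p = 0.191 by limma). Adora1 thus remained the main adenosine receptor transcript in each library, at 73.5% or more.

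**Figure D5:**
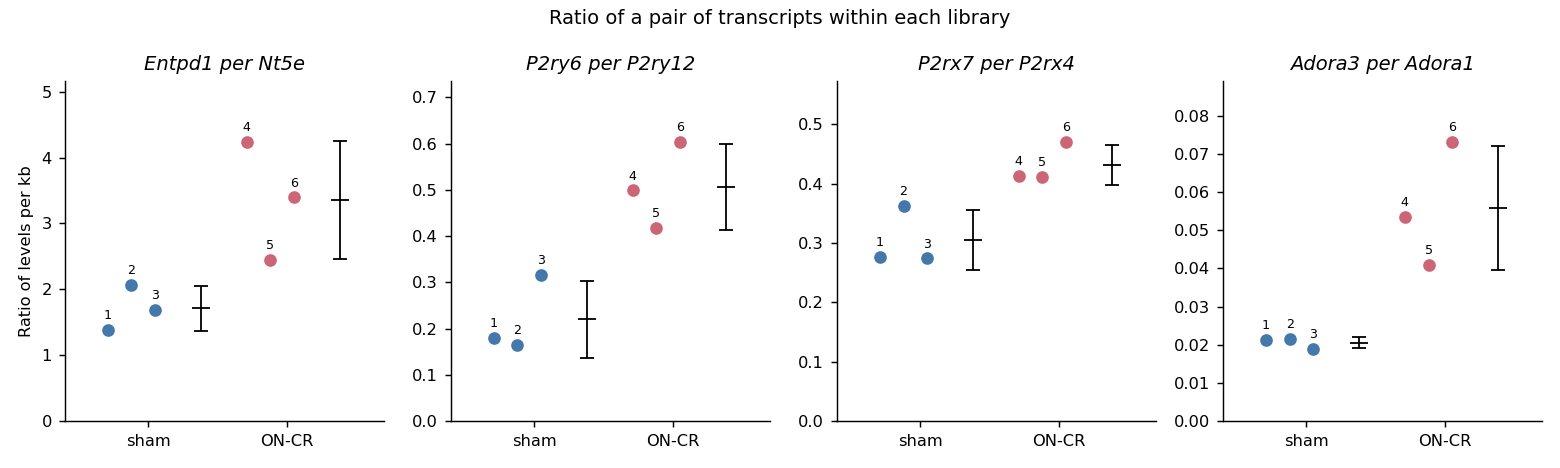
Ratio of the levels per kilobase of 4 of the 5 pairs of transcripts (vertical axis, starting at 0) in each library, with the mouse number at each point and the mean ± SD of the group as a bar. In all 4 panels the 3 ON-CR mice lie above the 3 sham mice, with ON-CR mouse 5 the lowest of the ON-CR mice.

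The other genes of the pathway that were measured numbered 35. At an adjusted p at or under 0.05 by limma, 1 of them was called lower and 0 higher, beside 1.13% and 0.971% of all genes. The gene called lower was Enpp2. It encodes autotaxin, a secreted enzyme of the ectonucleotide pyrophosphatase family known mainly for making lysophosphatidic acid and for its high level in oligodendrocytes. Enpp2 was at 14968, 13968 and 12574 in sham mice 1, 2 and 3, and at 7544, 6486 and 6705 in ON-CR mice 4, 5 and 6. The groups were far apart, with a log2 fold change of -1.001 (standard error 0.12, 95% interval -1.26 to -0.74, adjusted p = 0.00297 by limma), and the fall was called with each mouse left out. All 8 oligodendrocyte markers were lower after ON-CR too, 7 of them called, with a median log2 fold change of -0.88. The part of these cells in the fall of Enpp2 was not tested.

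The other receptors of the pathway gave no call. P2ry12, the ADP receptor by which microglia extend processes toward injury, was at 1947, 1857 and 1243 in sham mice 1, 2 and 3, and at 1389, 1143 and 1362 in ON-CR mice 4, 5 and 6. The groups overlapped, with a log2 fold change of -0.35 (standard error 0.17, 95% interval -0.74 to 0.03, adjusted p = 0.364 by limma). P2ry13, a second ADP receptor of microglia, was at 405, 285 and 255 in the sham group, against 608, 371 and 575 in ON-CR mice. Its log2 fold change was 0.71 (standard error 0.23, 95% interval 0.21 to 1.219, adjusted p = 0.159 by limma), and with a mouse left out it ranged from 0.57 to 0.94, with an adjusted p from 0.0327 (without ON-CR mouse 5, the only such fit that called it) to 0.440 (without sham mouse 2). P2rx2, a channel of sensory and other neurons, was at 39.3, 16.8 and 42.3 in the sham group, against 0, 13.6 and 12.5 in ON-CR mice. In the reported fit P2rx2 passed the filter of the study's methods with a log2 fold change of -2.43 (standard error 0.94, 95% interval -4.52 to -0.34, adjusted p = 0.244 by limma). With a mouse left out it ranged from -3.10 to -1.16 (adjusted p from 0.110 to 0.468 by limma), and -1.16 was without ON-CR mouse 4, the library listed at 0. P2rx2 was removed with at least 10 in every library, and whether it passed the filter in each other fit is not given. Panx1, which forms a channel for ATP release, was at 49.9, 58.4 and 25.4 in the sham group, against 75.8, 101.7 and 81.0 in ON-CR mice. Panx1 also passed that filter in the reported fit, with a log2 fold change of 1.01 (standard error 0.34, 95% interval 0.25 to 1.76, adjusted p = 0.179 by limma). Panx1 was at 0.65 without sham mouse 3, 0.88 without ON-CR mouse 5, 0.91 under voom with sample quality weights and 0.99 with a pseudocount of 2, all under a 2-fold change, so it did not pass the filter there. Over all 35 genes, those named above included, 3 were higher and 9 lower at an unadjusted p at or under 0.05 by limma. The shares of all genes were 7.37% higher and 8.22% lower. Among the 9 lower ones, 4 (Enpp1, Enpp2, Enpp3 and Alpl, named after their values were seen) were among the 7 other ectonucleotidases. Entpd4 and Entpd4b had almost the same values in each library, and how reads were divided between these near-identical copies is uncertain.

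The markers of microglia and other cells were read beside the receptors. The summed value of 10 microglial markers was between 15050 and 21082 in sham mice and between 18964 and 27513 in ON-CR mice, where mouse 5 was the lowest. The ranges of the groups overlapped. After adjustment, limma called 1 of these 10 higher (Trem2) and 0 lower. The list was mixed in direction. The log2 fold change was positive for 7 of the 10, and its median over all 10 was 0.37. Groups did not overlap for 2 markers that were higher after ON-CR and 1 that was lower, beside 10.5% and 11% of all genes. The share of all genes called higher after adjustment was 0.971%. No marker was at or under 10 in all libraries. For 8 markers of other macrophages and monocytes the sums were between 1711 and 2059 in sham mice and between 1376 and 2674 in ON-CR mice, with mouse 5 again lowest and 0 of 8 called. The part of these cells in the values of P2ry6, Adora3, P2rx7 and Entpd1 was not tested. For 6 fibroblast markers the sums were between 22188 and 26796 in sham mice and between 13489 and 21307 in ON-CR mice, without overlap. Their median log2 fold change was -0.39, and 0 of 6 were called after adjustment. At an unadjusted p at or under 0.05 by limma, 3 of 6 were lower and 0 higher, beside 8.22% and 7.37% of all genes. The part of fibroblasts in the values of Nt5e was not tested.

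The genes whose pattern was most like that of a member were found by Pearson's r of log2(value + 1) over the 6 libraries, among 14436 genes with a mean value of at least 50. Because the points are 6 shared libraries and the best of many genes is taken, r was at least 0.977 for the closest gene of every member, and it is given as a description. Closest to P2ry6 were Bcl2a1b, Gadd45b and Chic2 (r from 0.995 to 0.996). Closest to Adora3 were Supt20, Hbegf and Cebpz (r from 0.993 to 0.999), and closest to Entpd1 were Cd33, Irf5 and Abi3 (r from 0.990 to 0.995). P2rx7 was closest to Adamts5, Slc16a1 and Slc16a3, P2ry2 to Npnt, Gm44667 and S100a3, and Adora1 to Cox8a, Lmcd1 and Pcyt1b.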

How the data were processed

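RNA of optic nerves from 3 sham mice and 3 ON-CR mice was sequenced, 1 library per mouse by the labels, after library construction from low input with a SMARTer kit. Alignment and quantification by the authors used Illumina DRAGEN and Ensembl models for mm10, followed by median normalization (Partek Flow 10.0). The deposited signal is thus an estimated count per gene over 1 scaling factor per library, and the count test of the study was not used on it. Whether counting used strand is not given in the sources used here. The value of 1 read was taken from the most frequent low values, and between 66.1% and 68.2% of the values in a library were then whole reads within 0.02, so these reads served only to state depth.

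The test for all 25755 genes, without a filter, was limma (version 3.58.1, R 4.3.3) on log2(value + 1). It used a trend of variance on mean, and p-values were adjusted by Benjamini-Hochberg over all genes. Standard errors and 95% intervals are from this fit. Fold changes on this scale are smaller than true ones for genes with low values. Members, the other genes of the pathway and the marker lists were chosen with earlier results of these data known. The text names all members, other pathway genes that passed the adjusted threshold or the filter of the study's methods, and P2ry12 and P2ry13. Adora2b, Enpp1, Enpp3, Alpl, Entpd4, Entpd4b and Entpd5 were named in addition, after their values were seen. P2ry4 and Entpd8 were on the pathway list but were not found in the table under these symbols, and Acp3 stands in the table under its older symbol, Acpp. Positions and exon lengths are from GENCODE M21 (GRCm38, the assembly named mm10), and windows before starts are from RefSeq on GRCm38.p6. Replicates are separate mice according to the labels. The alternatives were pseudocounts of 2 and 0.5, filters on low values, upper-quartile, TMM (written anew for these values) and library-size scaling, a robust fit, voom with sample quality weights and leaving out each mouse.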

Additional observations from a re-analysis of the deposited data

How the results depend on the processing

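The number of members called at an adjusted p at or under 0.05 by limma was 1 in the reported fit, 0 with a pseudocount of 0.5 or a mean value of at least 10, and 2 (P2ry6 and Adora3) under library size only, the robust limma fit and voom with sample quality weights. With 1 mouse left out it ranged from 0 to 3, and it was above 0 only without ON-CR mouse 5, when P2ry6, Adora3 and Entpd1 were called. The cause was not tested. Over all 15 alternatives the adjusted p of P2ry6 ranged from 0.0047 to 0.236 and that of Adora3 from 0.0249 to 0.276. Of pathway genes, 2 were called in place of 1 with at least 10 in every library or the robust limma fit (Enpp2 and Entpd5), and 1 to 2 with a mouse left out. Members past the filter of the study's methods numbered 1 in place of 2 with at least 10 in every library, since P2ry2 was removed there and has no value, and 1 (without ON-CR mouse 6) to 3 with a mouse left out. Genes called in all numbered 540, and from 67 (without ON-CR mouse 6) to 854 (without ON-CR mouse 5) with a mouse left out. P2rx4 reversed, to -0.0729, without ON-CR mouse 4, and ranged from there to 0.140 with a mouse left out. The other members kept their sign in all alternatives, and Enpp2 was called in all 15. Library size only moved the median of all genes to 0.15, against 0.03 as deposited, so fold changes under it are higher by about this shift, with P2ry6 at 1.03 and Adora1 at -0.11. Members without overlap numbered 5 as deposited, beside 21.6% of all genes. They numbered 5 with upper-quartile scaling, 4 with TMM scaling, 6 with library size only and 5 to 7 with a mouse left out. The share of all genes was not computed for these settings. Smaller groups separate more easily, so the counts with a mouse left out cannot be set against 21.6%, and no result is drawn from them. No paired analysis was made, because by the labels sham and ON-CR are separate mice and no pairs are given. Depth limits P2ry2, which had 10 to 42 estimated reads per library.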
